A study of Mus musculus with 15 samples.

Results

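The levels of 9 genes of macrophages, leukocytes and red blood cells were followed in RNA-seq of foetal male germ cells that had been sorted away from the rest of the testis, called gonocytes by the study and spermatogonia in its sample protocol. They are 7 macrophage and leukocyte genes (Mrc1, Maf, Csf1r, Adgre1, Cx3cr1, Ptprc and Tyrobp) and 2 erythroid genes (Alas2 and Hba-a1), of 54838 genes in the count tables. Mrc1 and Maf were chosen by their read counts, which were higher in knockout libraries of these same data, and the remaining members were named with them, so the member values are given as a description with no test of the genotype. The study asked whether TEX15, a nuclear protein found with the PIWI protein MIWI2, is needed for transposon silencing and for gene expression in gonocytes. The 6 libraries compared here are 3 control and 3 knockout libraries from the E16.5 stage of embryonic development. Control cells were Tex15+/-; Miwi2 tdTom/+ and knockout cells were Tex15-/-; Miwi2 tdTom/+, so that both groups carried the Miwi2 tdTomato reporter allele by which the cells were sorted, and the controls carried 1 copy of the Tex15 null allele. The Tex15 null allele was made with CRISPR/Cas9 and came from 1 founder line, kept on a mixed B6CBAF1/Crl; C57BL/6N background. Nothing states how many foetuses gave each library or that the libraries came from separate foetuses, so an error below is the spread between libraries, which may be technical.

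Macrophages settle in the foetal testis from yolk sac and foetal liver progenitors, and lie in the interstitium and along the vessels, outside the cords that enclose the gonocytes. Their survival depends on signalling through the receptor CSF1R, and MAF-type transcription factors help to set their mature, self-renewing state. Red cell precursors instead make haem through ALAS2 and pair it with globin chains, and reach the testis only with the blood. Neither programme is part of the germ cell's own, and counts from a sorted population do not separate transcripts of the gonocytes from those of other cells.

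The 250 bases upstream of the RefSeq start (GRCm38.p6) are shown for Mrc1, the macrophage member with the most reads, and for the 2 erythroid members. Macrophage and erythroid values are set side by side below, where Hba-a1 had too few reads to compare. Capitals mark the GATA word (GATAA), a core bound by GATA factors of red cell precursors, the PU.1 word (GAGGAA), a core bound by that myeloid factor, and the KLF word (CACCC). Each was searched on both strands, and no marked match overlaps another kind. Mrc1 (chr2:14229164-14229413, plus strand) held 3 PU.1 words and neither of the others.
Mrc1: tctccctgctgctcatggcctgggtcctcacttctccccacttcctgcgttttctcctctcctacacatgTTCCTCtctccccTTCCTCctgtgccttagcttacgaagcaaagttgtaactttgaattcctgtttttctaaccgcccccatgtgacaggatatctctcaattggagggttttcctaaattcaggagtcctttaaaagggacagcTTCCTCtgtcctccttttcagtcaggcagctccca
Alas2: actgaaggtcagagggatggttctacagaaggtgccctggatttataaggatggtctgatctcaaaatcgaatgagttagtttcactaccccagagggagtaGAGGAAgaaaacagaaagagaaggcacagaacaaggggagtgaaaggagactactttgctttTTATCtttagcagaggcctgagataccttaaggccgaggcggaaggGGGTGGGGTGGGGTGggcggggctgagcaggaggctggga
Hba-a1: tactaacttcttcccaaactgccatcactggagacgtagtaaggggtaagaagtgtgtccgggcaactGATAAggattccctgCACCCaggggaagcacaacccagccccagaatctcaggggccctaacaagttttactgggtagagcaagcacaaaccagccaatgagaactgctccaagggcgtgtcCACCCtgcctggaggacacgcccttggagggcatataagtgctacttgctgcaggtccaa
Alas2 (chrX:150547167-150547416, plus strand) held 1 GATA word, 1 PU.1 word and 3 adjoining KLF words. Hba-a1 (chr11:32283422-32283671, plus strand) held 1 GATA word and 2 KLF words. Such short words are common: of 32851 upstream windows of 250 bases, 22.6% held the GATA word, 23.3% the PU.1 word and 52.0% the KLF word, and a match in letters does not show that a factor binds. The matching 300-base window of Hba-a2, the neighbouring alpha-globin gene, shared a run of 297 bases with that of Hba-a1. Of the other members, Cx3cr1 held 1 KLF word, and Ptprc held 1 PU.1 word before its first listed start and 2 GATA words before its other start. The upstream windows of Maf, Csf1r, Adgre1 and Tyrobp were not analysed here.

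The 6 libraries had between 4893265 and 5697020 reads on genes, and 3 reads in a library corresponded to between 0.540 and 0.594 counts per 1000000 (CPM), the highest level that a count of 0 allows (counting error only). CPM here is the count per 1000000 reads on genes after scaling by TMM factors (0.975 to 1.03). The targeted gene matched the labels, since controls 1, 2 and 3 gave 8183, 8315 and 9082 Tex15 reads and Tex15-/- replicates 1, 2 and 3 gave 2338, 1267 and 1310 (log2 fold change -2.35, SE 0.229, adjusted p = 0.0112, edgeR quasi-likelihood test). The 9 germ cell genes summed to 3340 to 3614 CPM in every library. Ddx4, a germ cell RNA helicase, was between 659 and 746 CPM, Dazl, an RNA-binding protein gene of germ cells, was at 252 to 288 CPM in the controls and 203 to 235 CPM in the knockout, and Nanos2, a factor of male foetal germ cells, was at 0.360 to 2.07 CPM.

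Tex15-/- replicates 2 and 3 stood apart from the other 4 libraries in genes of somatic testis cells, and every genotype comparison below is read with that in view. The summed CPM of 9 interstitial genes was 72.2 to 83.0 in the controls, 68.3 in Tex15-/- replicate 1, 1927 in replicate 2 and 451 in replicate 3. The 5 Leydig cell genes summed to 17.7 to 59.2 CPM in the controls and to 34.2, 547 and 169 CPM in Tex15-/- replicates 1, 2 and 3. The 6 Sertoli cell genes summed to 7.11 to 10.5 CPM in the controls and to 6.33, 69.3 and 53.9 CPM. All 9 interstitial, all 5 Leydig and 5 of 6 Sertoli genes were above every control in replicate 2, and likewise in replicate 3. Of the 16311 genes with enough reads to be tested, 35.6% were above every control in replicate 2 and 30.5% in replicate 3. Only 8 of the interstitial, 4 of the Leydig and 2 of the Sertoli genes had enough reads, so the shares are not of like genes. Among the Leydig genes, Insl3 had no read in the controls or in Tex15-/- replicate 1. Replicate 1 lay within or below the control range in each of these 3 lists. The part that other cells or RNA from them played in the values below was not tested, and in bulk libraries fewer cells of a type and less RNA per cell cannot be told apart.

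The macrophage members were high in Tex15-/- replicates 2 and 3 and, apart from Mrc1 and by a small margin Ptprc, not in replicate 1. Summed over the 7 genes, the level was 16.96, 15.8 and 14.3 CPM in the controls, 18.02 CPM in Tex15-/- replicate 1, and 93.1 and 101 CPM in replicates 2 and 3. These last 2 libraries were 5.93 and 6.41 times the control mean, and replicate 1 was 1.15 times that mean. The summed level of the erythroid members was 14.6, 20.4 and 13.9 CPM in the controls and 13.3, 16.02 and 16.95 CPM in the Tex15-/- libraries, within the control range except for replicate 1, just below it. The erythroid level is nearly all Alas2, since Hba-a1 gave 0 reads in 4 libraries and 4 and 2 in the remaining ones. It is therefore not read as a level of red cells, and it does not speak for the adult globins described below. The ratio of the macrophage members to the erythroid members, in effect to Alas2, was 1.16, 0.777 and 1.03 in the controls. It was 1.36, 5.81 and 5.93 in Tex15-/- replicates 1, 2 and 3. As the log2 ratio of the group means, the macrophage members differed by 2.17 and the erythroid members by -0.08. With Tex15-/- replicate 1 as the lone knockout library these became 0.20 and -0.30, and without replicate 1 they were 2.62 and 0.02.

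**Figure D1:**
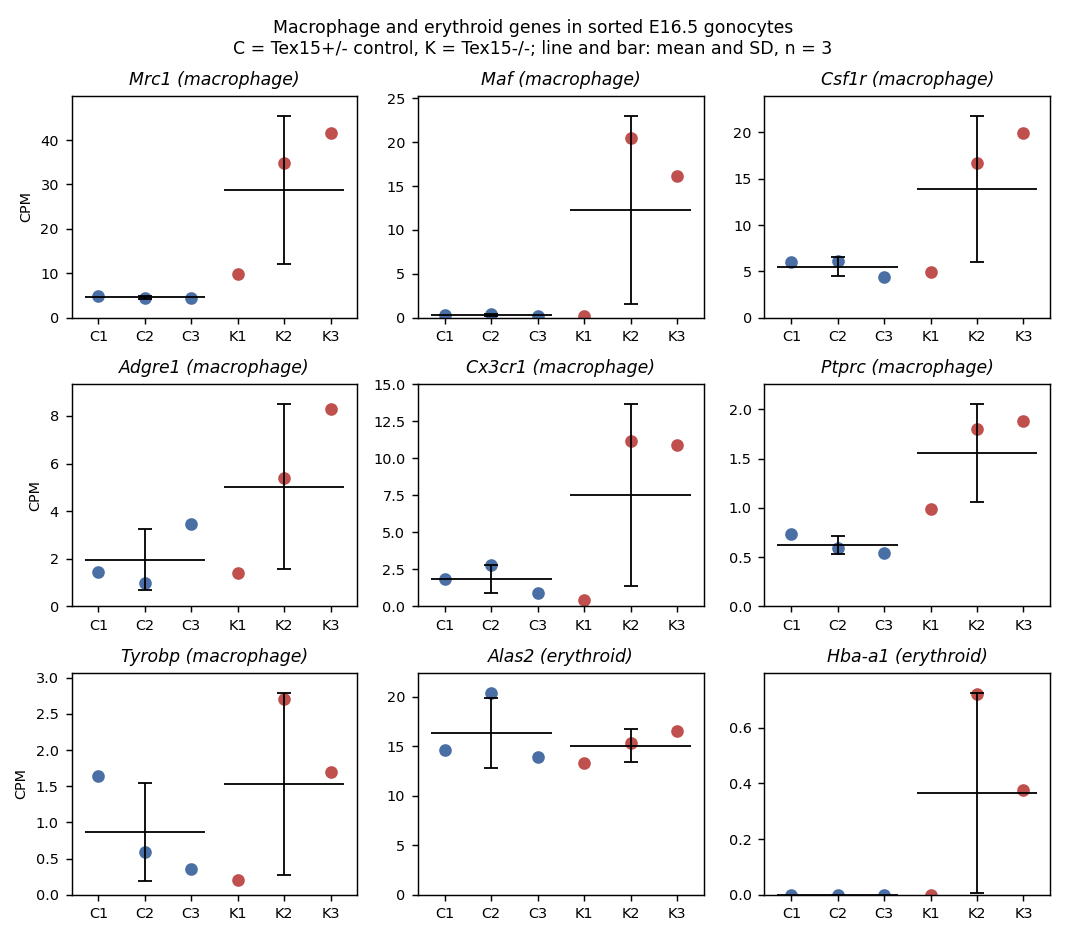
Level of each member in CPM (y axis, linear) in the 3 control libraries (C1 to C3, blue) and the 3 Tex15-/- libraries (K1 to K3, red), with the group mean and SD (n = 3). For the 7 macrophage and leukocyte genes K2 and K3 lie above every control, K1 lies among or below the controls except for Mrc1 and Ptprc, and Alas2 stays between 13.3 and 20.4 CPM throughout.

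Mrc1 encodes the mannose receptor CD206, an endocytic lectin of tissue macrophages, and lies at chr2:14229392-14332057 (GRCm38, plus strand). It had 27, 22 and 25 reads in the controls and 50, 193 and 221 reads in Tex15-/- replicates 1, 2 and 3. The control libraries sat together at 4.92, 4.36 and 4.53 CPM, and all 3 knockout libraries were above them at 9.90, 34.7 and 41.6 CPM. Against the pooled controls, replicate 1 was 2.15 times higher (exact 95% counting interval 1.47 to 3.12), replicate 2 was 7.54 times (5.74 to 9.99) and replicate 3 was 9.03 times (6.91 to 11.9). The read counts in these libraries chose Mrc1, so these intervals describe counting error and test nothing. The fitted log2 fold change was 2.64 (SE 0.455), and it ran from 1.102, with replicate 1 as the lone knockout library, to 3.06, without that library.

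Maf encodes a large MAF bZIP transcription factor of macrophages and of several other tissues, and lies at chr8:115682942-115707794 (minus strand). It was nearly absent from 4 libraries, with 2, 2 and 1 reads in the controls and 1 read in Tex15-/- replicate 1, and had 114 and 86 reads in replicates 2 and 3. In CPM these are 0.365, 0.396 and 0.181 in the controls against 0.198, 20.5 and 16.2. Over the 5 pooled control reads, replicate 2 was 65.9 times higher (exact counting interval 27.4 to 207) and replicate 3 was 52.0 times (21.5 to 164), whereas replicate 1 was 0.636 times the controls (0.0134 to 5.68). The groups overlapped through replicate 1, and Maf did not pass the filter on low counts. Maf made up 1.27% to 2.50% of the reads on the 7 genes in the controls and 1.099% in Tex15-/- replicate 1. In replicates 2 and 3 it made up 22.1% and 16.1%, so that its share of the reads on these genes differed as well as its level. Which cells the Maf reads came from was not tested. In the transcript annotation 4.05% of its 72-base windows also occur in Gm15655, an antisense gene with no read in any library.

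The 3 other surface receptors followed replicates 2 and 3 at lower levels. Csf1r, the receptor for the growth factors CSF1 and IL-34, had 33, 31 and 24 reads in the controls and 25, 93 and 106 in Tex15-/- replicates 1, 2 and 3 (6.02, 6.14 and 4.35 CPM against 4.95, 16.7 and 19.97). Cx3cr1, the fractalkine receptor, had 10, 14 and 5 reads in the controls and 2, 62 and 58 (1.82, 2.77 and 0.905 CPM against 0.396, 11.2 and 10.9). Adgre1, which encodes the macrophage antigen F4/80, had 8, 5 and 19 reads in the controls and 7, 30 and 44 (1.46, 0.990 and 3.44 CPM against 1.39, 5.40 and 8.29). In all 3 genes replicates 2 and 3 were above every control while replicate 1 lay among the controls or, for Cx3cr1, below them. The fitted log2 fold changes were 1.33 for Csf1r (SE 0.448), 1.34 for Adgre1 (SE 0.664) and 2.03 for Cx3cr1 (SE 0.833), and with replicate 1 as the lone knockout library they became -0.15, -0.50 and -2.14. The value of Adgre1 was 2.01 without control replicate 3 and 0.79 without Tex15-/- replicate 3. Csf1r and Hmgxb3, on the opposite strand, overlap in 873 exonic bases, and Hmgxb3 had 373, 356 and 362 reads in the controls and 356, 243 and 263 in the Tex15-/- libraries. Csf1r lies at chr18:61100598-61132149 (plus strand), Cx3cr1 at chr9:119901616-120069879 (minus strand) and Adgre1 at chr17:57358691-57483527 (plus strand).

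Ptprc and Tyrobp, which are shared by most leukocytes or by myeloid and natural killer cells, were near the limit of detection. Ptprc encodes the phosphatase CD45 (chr1:138062861-138175708, minus strand) and had 4, 3 and 3 reads in the controls and 5, 10 and 10 in the Tex15-/- libraries. Tyrobp encodes DAP12, an adaptor that passes on signals from receptors such as TREM2 (chr7:30413760-30417585, plus strand), and had 9, 3 and 2 reads in the controls and 1, 15 and 9 in the Tex15-/- libraries. The groups did not overlap for Ptprc, as for Mrc1, and overlapped for the other 5 macrophage members. Of the 16311 genes that passed the filter, 6.53% had such a gap with the knockout libraries higher. Since the same contrast chose the members, nothing is read from that count. For Ptprc the intervals over the pooled controls were 1.080 to 7.74 in replicate 2 and 1.13 to 8.10 in replicate 3, and for Tyrobp they were 1.39 to 6.92 and 0.742 to 4.82.

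Alas2 stayed level across the 6 libraries, and Hba-a1 had too few reads to compare. Alas2, the erythroid form of the first enzyme of haem synthesis, whose upstream window above holds all 3 kinds of word (chrX:150547375-150570638, plus strand), had 80, 103 and 77 reads in the controls and 67, 85 and 88 in the Tex15-/- libraries. In CPM these are 14.6, 20.4 and 13.9 against 13.3, 15.3 and 16.6, so the groups overlapped and the largest value was in a control library. Tex15-/- replicates 1, 2 and 3 were 0.819 (exact counting interval 0.617 to 1.075), 0.945 (0.731 to 1.21) and 1.02 (0.795 to 1.31) times the pooled controls, and the fitted log2 fold change was -0.12 (SE 0.233). Alas2 overlaps Apex2, a DNA repair gene on the opposite strand, in 311 exonic bases, and Apex2 had 72, 56 and 91 reads in the controls and 64, 52 and 43 in the Tex15-/- libraries. Hba-a1, an adult alpha-globin chain (chr11:32283511-32284465, plus strand), had no read in the 3 controls or in Tex15-/- replicate 1, and 4 and 2 reads in replicates 2 and 3. Those counts are at or near the limit of 3 reads, so no fold is given. Hba-a1 shares 68.5% of its 72-base windows with Hba-a2, and reads from either gene can be lost or moved between them, depending on how reads with several places were counted.

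Of the 9 members 5 passed the filter on low counts (Mrc1, Csf1r, Adgre1, Cx3cr1 and Alas2), and Maf, Ptprc, Tyrobp and Hba-a1 did not. Levels between genes were compared per length, in reads per kilobase of exon per 1000000 reads (RPKM). In the controls, Alas2 had the highest mean at 6.79 RPKM, followed by Tyrobp at 1.30, Csf1r at 0.953, Mrc1 at 0.722, Adgre1 at 0.606 and Cx3cr1 at 0.407, with Maf and Ptprc at 0.0381 and 0.0340 and Hba-a1 listed at 0. In the mean of Tex15-/- replicates 2 and 3, Alas2 was at 6.63 RPKM and Mrc1 at 5.99, followed by Tyrobp at 3.30, Csf1r at 3.18, Cx3cr1 at 2.45, Maf at 2.23, Adgre1 at 2.11, Hba-a1 at 0.675 and Ptprc at 0.101. Maf moved from beside Ptprc to beside Cx3cr1 and Adgre1 in this order. Tyrobp, a short transcript of 667 bases, rests on at most 15 reads a library, and its place in the order is correspondingly loose.

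Between Tex15-/- replicates 2 and 3 the 5 macrophage members with enough reads had ratios near 1, and the genes of the interstitium had ratios far below 1. The ratio of replicate 3 to replicate 2 was 1.198 for Mrc1 (exact counting interval 0.983 to 1.46), 1.19 for Csf1r (0.894 to 1.59), 0.979 for Cx3cr1 (0.672 to 1.42), 0.789 for Maf (0.590 to 1.05) and 1.53 for Adgre1 (0.943 to 2.53). Every one of these intervals includes 1, which does not show that the levels were equal. Mrc1 and Maf were also chosen by their counts in these same libraries, so these ratios are a description. The 9 interstitial genes had ratios between 0.138 and 0.373, and the 4 Leydig genes with enough reads had ratios between 0.243 and 0.389. Among 12 endothelial genes the median ratio was 0.369, and the summed endothelial level was at the control level in replicate 3 (128 CPM, against 127 to 140 CPM in the controls) but not in replicate 2 (320 CPM). The Sertoli genes, with a median ratio of 0.813, were nearer to the macrophage genes, whose median was 1.19. The 11 other core macrophage genes with enough reads ranged more widely, from 0.644 for Lyz2 (0.423 to 0.969) to 2.55 for Fcgr3 (1.39 to 4.89), and their median was 1.25. Each ratio compares 2 libraries, with no replicate behind it.

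**Figure D2:**
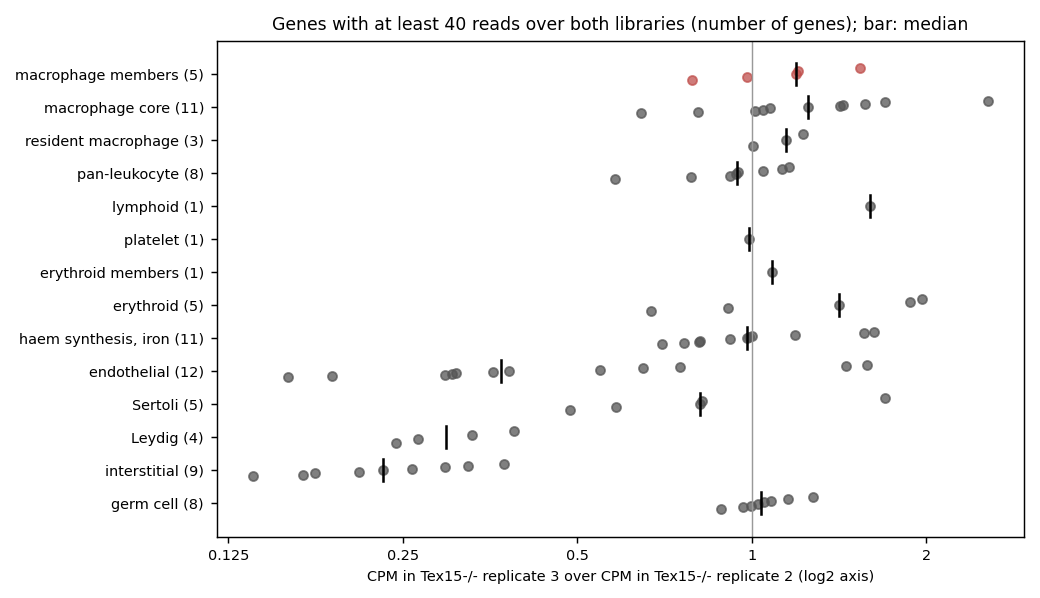
Ratio of the CPM in Tex15-/- replicate 3 to that in replicate 2 (x axis, log2 scale) for each gene with at least 40 reads over both libraries, by list, with the number of genes in brackets and the median as a bar. The macrophage members spread around 1 (0.789 to 1.53), and all 9 interstitial genes lie at or below 0.373.

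Other macrophage genes were taken from lists of markers, without the members. These lists too were chosen with earlier results of these data known, so their counts and levels are a description. In the 17 core macrophage genes, the number above every control was 2 in Tex15-/- replicate 1, 10 in replicate 2 and 16 in replicate 3, and their summed level was 27.9 to 47.0 CPM in the controls and 35.4, 87.5 and 110 CPM in the Tex15-/- libraries. Among all 16311 genes tested, 23% were above every control in replicate 1, 35.6% in replicate 2, 30.5% in replicate 3 and 19.8% in both of the last. That background holds genes past the filter on low counts, whereas 7 of the 17 core and 4 of the 10 resident genes passed it, so the shares are not of like genes. In the 10 genes of resident macrophages, 1, 4 and 6 were above every control in replicates 1, 2 and 3, and the summed level was 17.9 to 27.7 CPM in the controls and 17.03, 59.6 and 65.2 CPM. Most of that difference was Stab1, described below, and without it, a choice made after its values were seen, the other 9 genes summed to 11.95 to 17.03 CPM in the controls and 10.7, 21.96 and 22.04 CPM, which is 1.56 times the control mean in both replicates 2 and 3. The 14 pan-leukocyte genes rested largely on Ptpn6, a phosphatase at 26.1 to 53.6 CPM in the controls and 47.9 to 57.1 CPM in the knockout, and their sum in Tex15-/- replicates 2 and 3 was 1.47 and 1.38 times the control mean. In that list 4, 10 and 10 genes were above every control in replicates 1, 2 and 3, and 9 of the 14 passed the filter.

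No listed blood gene passed the genotype test with all 6 libraries and the filter on low counts, and 6 did, all higher, without that filter (1.15% of all genes called in either direction). Of the 116 blood genes listed beside the members, 52 passed the filter, 0 were called at an adjusted p under 0.01 by edgeR (0% of all genes tested), 0 at an adjusted p under 0.05 (0.0184% of all genes) and 0 by DESeq2 (0.0739% of all genes tested). At the 0.01 threshold the edgeR test did not call Tex15, the targeted gene, either (adjusted p = 0.0112). The 0 calls therefore do not show that levels were equal. At an unadjusted p under 0.05 in edgeR, 6 of the 52 had higher and 2 had lower values in the knockout, against 6.05% and 3.15% of all genes tested. The higher ones were 2 of 4 resident and 2 of 7 core macrophage genes, 1 of 3 lymphoid genes and 1 of 12 haem and iron genes. Both lower ones were haem and iron genes. The lists were chosen with earlier results of these data known, so these counts are a description. Stab1, a scavenger receptor of resident macrophages and of sinusoidal endothelium, had 51, 54 and 33 reads in the controls and 32, 209 and 229 in the Tex15-/- libraries (log2 fold change 1.75, SE 0.542, adjusted p = 0.460). Mertk, a receptor for the uptake of dying cells that Sertoli cells also express, had 15, 10 and 16 reads and 10, 48 and 46 (1.33, SE 0.537, adjusted p = 0.493). F13a1, a coagulation factor chain of resident macrophages, had 18, 16 and 13 reads and 15, 29 and 34 (0.73, SE 0.430, adjusted p = 0.611). All 3 again had replicate 1 at the control level and replicates 2 and 3 above every control.

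Of the core macrophage genes with high mean levels, neither Irf8 nor Cd68 passed the test, and Cd68 again had replicates 2 and 3 above every control. Irf8, a myeloid transcription factor, was at 9.85, 10.1 and 3.62 CPM in the controls and 8.71, 8.46 and 10.6 CPM in the knockout (adjusted p = 0.850). Cd68, a lysosomal protein of macrophages, was at 3.46, 4.75 and 6.16 CPM against 4.75, 7.74 and 11.1 CPM (adjusted p = 0.592).

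Leaving out Tex15-/- replicate 1 gave 6 called blood genes, all higher, of 69 tested, where 1.69% of 17520 genes were called higher and 0.525% lower. They were Stab1, the complement genes C1qa, C1qb and C1qc, the lysozyme gene Lyz2 and the protease gene Ctss, named after their values were seen. The adjusted p of Stab1 in that edgeR fit was 0.000357, and in the edgeR fit of all 6 libraries it was 0.460. The library left out was the knockout library with Stab1 at the control level, so the smaller p is not read as support for a genotype difference. C1qa, C1qb, C1qc and Lyz2 did not pass the filter with all 6 libraries and entered this fit through the 2 libraries in which they are high, so their calls are not read as support. C1qa had 2, 3 and 1 reads in the controls and 0, 29 and 47 in Tex15-/- replicates 1, 2 and 3, and Lyz2 had 10, 2 and 0 reads and 2, 65 and 40. Over the pooled controls, C1qa was 13.97 times higher in replicate 2 (exact counting interval 5.70 to 41.2) and 23.7 times in replicate 3 (10.1 to 67.8). Ctss had 13, 3 and 1 reads in the controls and 6, 48 and 72 in the knockout. Apart from replicates 2 and 3 it reached 10 reads only in control replicate 1, so its call is not read as support either. The same fit called all 9 interstitial and 4 Leydig genes and 4 of the Sertoli genes, of which 1 interstitial and 3 Sertoli genes entered it in the same way.

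Not every macrophage marker followed these 2 libraries. Among the resident genes, Cd163, a haemoglobin scavenger receptor, had 5, 11 and 9 reads in the controls and 3, 12 and 1 in the Tex15-/- libraries. Lyve1 had 5, 7 and 7 reads and 9, 5 and 8, Timd4 had 3, 13 and 4 reads and 3, 7 and 2, and Folr2 had 2, 3 and 3 reads and 1, 0 and 0. None of these 4 genes, named after their values were seen, was above every control in both replicates 2 and 3, as Stab1 and Mertk of the same list were. Spi1, the core macrophage gene that encodes PU.1, had 4, 1 and 3 reads in the controls and 0, 4 and 8 in the Tex15-/- libraries. In CPM it was above every control in replicate 3 and not in replicate 2.

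**Figure D3:**
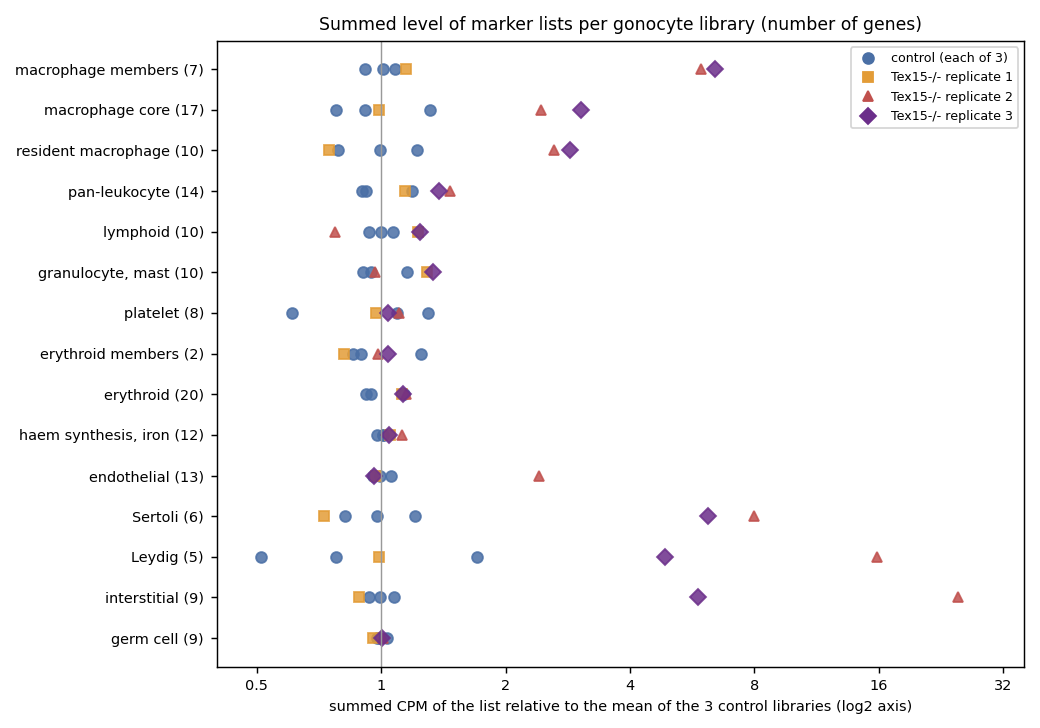
Summed CPM of each marker list in each library relative to the mean of the 3 controls (x axis, log2 scale), with the number of genes in brackets. The 3 macrophage lists are above every control in Tex15-/- replicates 2 and 3 (the resident list mostly through Stab1), the interstitial and Leydig lists are several times higher in replicate 2 than in replicate 3, and the erythroid and germ cell lists stay near 1.

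Relatives and partners of the members were compared in the same fit. Of the MAF family, Mafg, Mafk and Mafa, the most abundant of those listed beside Maf, had adjusted p-values of 0.559, 1.00 and 0.930. Mafg, a small MAF of many tissues, was at 29.4, 31.9 and 32.1 CPM in the controls and 37.6, 36.2 and 41.1 CPM in the knockout. Of the mannose receptor family, Mrc2, a collagen receptor of fibroblasts, was at 13.5 to 16.4 CPM in the controls and 16.04, 33.8 and 16.4 CPM in the knockout (adjusted p = 0.581), high in the library with the most interstitial RNA and not in replicate 3. Ly75 was at 23.8 to 24.98 CPM in the controls and 23.6, 12.96 and 23.4 CPM (adjusted p = 0.705), and Pla2r1 was at 7.24 to 8.71 CPM and 5.54 to 6.22 CPM (adjusted p = 0.607). Among ligands and partners, Csf1, the main ligand of CSF1R, was at 2.92, 5.94 and 4.53 CPM in the controls and 6.33, 3.96 and 3.39 CPM (adjusted p = 0.985). Cx3cl1, the ligand of CX3CR1, was at 1.81 to 2.73 CPM and 2.57, 3.42 and 6.41 CPM (adjusted p = 0.617), and Syk, the kinase downstream of DAP12, was at 13.9 to 18.02 CPM and 14.8, 9.001 and 11.7 CPM (adjusted p = 0.592). None of these 3 partners passed the test. Trem2, a receptor that signals through DAP12, did not pass the filter on low counts and had 2, 3 and 0 reads in the controls and 4, 9 and 22 in the Tex15-/- libraries, and was named after its values were seen.

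The wider erythroid list was level, but it rested on a gene that is not confined to red cells. Its 20 genes summed to 182 to 225 CPM in the controls and 222, 228 and 223 CPM in the Tex15-/- libraries, and Sptb, a spectrin chain, accounted for 151 to 194 CPM in the controls and 180 to 197 CPM in the knockout (adjusted p = 0.615). Tal1 was at 5.54 to 8.51 CPM in the controls and 4.55, 4.32 and 8.10 CPM (adjusted p = 0.786). Hbb-bh1, an embryonic globin gene, had no read in any library. The adult globins, named after their values were seen, were low but not flat: Hba-a2 had 6, 5 and 5 reads in the controls and 0, 17 and 23 in the knockout, Hbb-bs 0, 3 and 3 reads and 0, 7 and 15, and Hbb-bt 1, 2 and 2 reads and 1, 5 and 10. For Hba-a2 this was 3.07 times the pooled controls in replicate 2 (exact counting interval 1.46 to 6.50) and 4.35 times in replicate 3 (2.20 to 8.81). The embryonic globins did not share this order, with 0, 1 and 7 reads of Hba-x in the controls and 1, 2 and 1 in the knockout, and 0, 1 and 8 reads of Hbb-y in the controls and 1, 3 and 7 in the knockout.

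The 12 genes of haem synthesis and iron supply all passed the filter, and none was called. At an unadjusted p under 0.05 in edgeR, 1 of the 12 was higher and 2 were lower in the knockout, against 6.05% and 3.15% of all genes tested. Alas1, the housekeeping counterpart of Alas2, was at 43.8, 51.5 and 45.5 CPM in the controls and 47.9, 94.0 and 65.7 CPM in the knockout (log2 fold change 0.56, SE 0.210, adjusted p = 0.477). Tfrc, the transferrin receptor, was at 54.0, 58.0 and 52.7 CPM and 49.9, 25.2 and 40.9 CPM (-0.51, SE 0.211, adjusted p = 0.504). Urod was at 39.9 to 44.7 CPM and 45.5 to 51.3 CPM (adjusted p = 0.733).

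Markers of other blood cells were scarce. The 8 platelet genes summed to 7.84 to 16.7 CPM in the controls and 12.5 to 14.2 CPM in the knockout. Itga2b, an integrin chain, made up the most of this (5.83 to 10.1 CPM and 6.41 to 7.72 CPM, adjusted p = 0.864). Treml1 had 4, 7 and 3 reads in the controls and 7, 18 and 12 in the knockout. Gp5 had 4, 22 and 19 reads and 9, 4 and 9, and neither gene passed the filter on low counts. Ppbp had no read in any library. The 10 lymphoid genes summed to 12.2 to 13.9 CPM in the controls and 10.1 to 16.2 CPM in the knockout, led by Gzma (adjusted p = 0.799), Cd3e (adjusted p = 0.843) and Cd79a (adjusted p = 0.517). Cd79a, a B cell receptor chain, had 10, 4 and 7 reads in the controls and 10, 17 and 26 in the knockout, above every control in CPM. The 10 granulocyte and mast cell genes summed to 4.71 to 6.02 CPM and 5.04 to 6.97 CPM, and none of them passed the filter. In the sums of these 3 lists Tex15-/- replicates 2 and 3 did not both lie outside the control range on the same side.

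The genes most like each lead member across the 6 libraries were not blood genes. By Pearson correlation of log2(CPM + 1) over 6 libraries, which share depth and cell make-up, the closest to Mrc1 among the genes that passed the filter were Ctxn1 (0.988), Brdt (0.988), Tdrd7 (0.988), Eif2b4 (0.987) and Slc43a1 (0.986). Brdt, a bromodomain gene of male germ cells, was at 542, 541 and 545 CPM in the controls and 565, 622 and 653 CPM in the knockout, so its range was far narrower than that of Mrc1. Csf1r was the closest member, at rank 133 (0.932), followed by Adgre1 at rank 964 (0.830) and Cx3cr1 at rank 1127 (0.814), and the correlation between Mrc1 and Alas2 was -0.02. The closest to Alas2 were Tmco4 (0.978), Apc2 (0.968), Armc10 (0.967), Zc3h15 (0.966) and Fndc10 (0.962). With so few libraries such values are a description of the order of the libraries.

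Small RNA libraries from pooled whole E16.5 foetal testes, with 3 control and 3 Tex15-/- libraries, hold microRNAs of blood cells and give a view of the unsorted organ. The mature sequences (RefSeq, GRCm38.p6) are shown with the seed, bases 2 to 8, in capitals. They are the erythroid miR-451a and miR-144-3p, which come from neighbouring hairpins on chromosome 11, both arms of the leukocyte miR-142a, and the myeloid miR-223-3p. No seed is shared among them.
miR-451a: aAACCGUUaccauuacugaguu
miR-144-3p: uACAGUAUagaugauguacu
miR-142a-3p: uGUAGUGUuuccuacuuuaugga
miR-142a-5p: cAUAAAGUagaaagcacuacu
miR-223-3p: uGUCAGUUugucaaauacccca
In reads per 1000000 mature microRNA reads (RPM), miR-451a was at 77.5, 57.3 and 73.9 in the controls and 41.1, 57.6 and 52.7 in the Tex15-/- testes. Few of its reads had the full 22 bases shown (8 of 463 in control replicate 1), the others being of other lengths or with changes. miR-144-3p was at 33.3, 19.4 and 32.5 in the controls and 9.59, 11.7 and 21.3 in the knockout. The groups overlapped for miR-451a and miR-144-3p, with the knockout means lower, unlike the third listed erythroid microRNA, miR-486-5p.

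The leukocyte microRNAs miR-142a and miR-223 did not have higher means in the Tex15-/- testes. miR-142a-3p was at 68.8, 33.5 and 49.8 RPM in the controls and 34.1, 28.6 and 35.8 in the knockout. miR-142a-5p was at 17.7, 11.0 and 18.6 against 4.44, 3.71 and 12.6, and miR-223-3p at 6.36, 6.63 and 11.7 against 5.44, 2.298 and 8.11. In all 3 the groups overlapped and the knockout mean was lower. miR-486-5p, which is also rich in muscle, was at 330, 291 and 323 in the controls and 453, 745 and 360 in the knockout, the 1 listed microRNA of 7 whose groups did not overlap, as was so with the knockout higher for 7.12% and with the knockout lower for 16.9% of 590 microRNAs. miR-150-5p, of mature lymphocytes, was at 5.19, 6.63 and 6.58 against 8.16, 6.36 and 4.32. These values come from another tissue fraction than the sorted gonocytes, and were not tested.

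**Figure D4:**
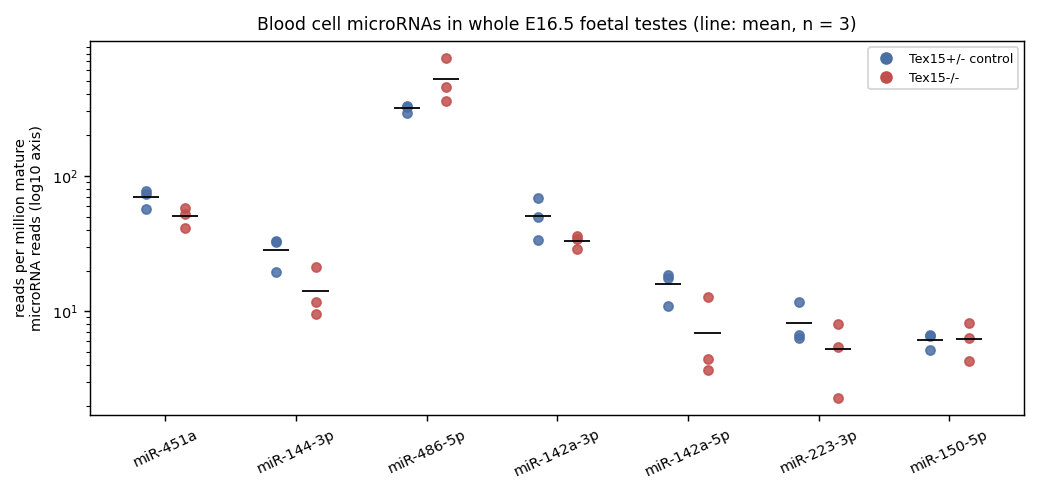
Blood cell microRNAs in RPM (y axis, log10 scale) in 3 control (blue) and 3 Tex15-/- (red) whole foetal testes, with the mean as a line. The points of the 2 groups overlap for every microRNA but miR-486-5p, whose Tex15-/- libraries lie at 360 and above.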

How the data were processed

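For the gonocytes the deposited values are raw counts of reads for each Ensembl gene, which the authors made by aligning with HISAT2 and counting with HTSeq 0.11.1. Rows naming no gene held 61.3% to 67.3% of each table and were left out. Whether reads were counted by strand is not given in the sources used here, so overlapping, antisense and paralogous genes are uncertain. For small RNA, the authors trimmed, collapsed and annotated reads and deposited the count of each sequence. Reads of 18 to 32 bases were used, and the identical miR-486a-5p and miR-486b-5p were summed. The repeat tables and the P20 libraries were not used here.

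Groups came from the sample labels. Of the identifiers, 54723 matched a GENCODE symbol (GRCm38). Counts were fitted on the whole table in R 4.3.3 with edgeR 4.0.16 (TMM, filterByExpr with a minimum count of 10 and total of 15, quasi-likelihood test, Benjamini-Hochberg adjustment, call at an adjusted p under 0.01), which was tested on simulated data. Alternatives were DESeq2 1.42.0, other size factors, no filter, the newer quasi-likelihood estimate, an adjusted p under 0.05, a replicate block, and each library left out. Replicate 1 as the lone knockout library was added after seeing the data. Replicate libraries differed by more than sampling noise (chi-square per degree of freedom 3.14 to 19.2). Ratios between pooled counts have exact conditional 95% intervals, for counting error only. The members and lists were chosen with earlier results of these data known. Named genes were the 9 members, Tex15, the 3 genes of each list with the highest mean CPM, any listed gene past an adjusted p of 0.05, and the 5 genes most correlated with Mrc1 and with Alas2. Some genes that this rule names are not reported here.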

Additional observations from a re-analysis of the deposited data

How the results depend on the processing

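The count of called blood genes was 0 with DESeq2 size factors, total counts, DESeq2, the newer quasi-likelihood estimate and an adjusted p under 0.05, and was 6, all higher, without a filter on low counts. Leaving out each library in turn gave 0 to 6, the 6 without Tex15-/- replicate 1. Over all genes, the 0 calls became 488 without a filter, 14 with DESeq2, 2 with the newer estimate, 3 at an adjusted p under 0.05, 0 to 388 with each library left out (388 without Tex15-/- replicate 1, 5 without replicate 2, 1 without control replicate 1) and 18 with replicate 1 as the lone knockout library, whose spread is assumed to be that of the controls. Of the 5 fitted members, 4 had a higher value in the knockout. This count was 8 of 9 without a filter or with DESeq2, 4 to 6 with each library left out, and 1 with replicate 1 alone. The number of members fitted differed between these settings. The same contrast chose the members, so nothing is read from this count. The log2 ratio of the macrophage members was 1.82 to 2.62 with each library left out and 0.20 with replicate 1 alone; that of the erythroid members was -0.18 to 0.11 with each library left out. The replicate numbers did not pair the samples (correlations of the deviations -0.14, -0.04 and -0.01): with the replicate block, 0 blood genes and 0 of all genes were called, and 4 members were higher. Depth also limits the members, since Maf, Ptprc, Tyrobp and Hba-a1 had 0 to 9 reads in the controls, and differences of a few reads could not be seen. The cause of these changes was not tested.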
